A study of Homo sapiens with 6 samples.

Results

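The HOX genes examined here are the 39 protein-coding genes of the HOXA, HOXB, HOXC and HOXD clusters, chosen by symbol (a cluster letter and a paralog number) from the 60675 genes of the count table. HOXA holds 11 of them, HOXB 10, HOXC 9 and HOXD 9. Total RNA was sequenced from HEK293, a human line established from embryonic kidney. Of the libraries, 3 were labelled as wild type control and 3 as carrying an RNAi knockdown of MOCS2, a gene for molybdopterin synthase. All 6 were grown in high-glucose medium with serum and Geneticin, and the labels give neither the RNAi agent nor whether the cells of a group came from separate cultures, so p-values reflect the spread among these samples alone, and that spread may be technical. A HOX gene was counted as detected when its counts summed to 30 or more over the 6 libraries, and 37 of the 39 were.

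HOX genes encode homeodomain transcription factors. They lie in the order in which they are switched on along the embryonic head-to-tail axis, low paralog numbers at the head end and high ones at the tail end, and genes of the same number in different clusters are descended from one ancestral gene. Polycomb complexes keep HOX genes silent and trithorax complexes keep them active, retinoic acid induces the low-numbered members, and adult and cultured cells keep much of the HOX pattern of the body region they came from. The paralogs numbered 11 are known for the induction of the embryonic kidney.

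The homeobox, the stretch of DNA that codes for the DNA-binding domain, is shown for the member of each cluster with the highest mean level per exon length over all 6 libraries and for the 3 members with the smallest p-values below, because it is what the family shares. Sequences were read from GENCODE 29 transcripts (GRCh38), 5′ to 3′ on the coding strand, and capitals mark the codons by which each was found, which code for the core of the DNA-recognition helix.
HOXA5: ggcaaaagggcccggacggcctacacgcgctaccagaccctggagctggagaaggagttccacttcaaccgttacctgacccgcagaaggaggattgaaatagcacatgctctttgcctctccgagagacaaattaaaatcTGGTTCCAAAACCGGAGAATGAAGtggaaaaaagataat
HOXB9: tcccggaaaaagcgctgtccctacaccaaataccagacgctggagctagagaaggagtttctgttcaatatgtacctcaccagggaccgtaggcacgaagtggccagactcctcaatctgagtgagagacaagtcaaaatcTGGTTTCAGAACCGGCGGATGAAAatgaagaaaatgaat
HOXC9: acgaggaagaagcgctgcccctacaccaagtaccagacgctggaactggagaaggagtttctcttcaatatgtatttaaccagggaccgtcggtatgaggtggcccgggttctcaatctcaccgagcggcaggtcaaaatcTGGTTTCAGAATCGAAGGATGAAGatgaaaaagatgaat
HOXD10: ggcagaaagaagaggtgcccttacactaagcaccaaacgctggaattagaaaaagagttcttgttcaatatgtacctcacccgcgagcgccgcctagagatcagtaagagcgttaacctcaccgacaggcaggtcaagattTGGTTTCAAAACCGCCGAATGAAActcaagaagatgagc
HOXA13: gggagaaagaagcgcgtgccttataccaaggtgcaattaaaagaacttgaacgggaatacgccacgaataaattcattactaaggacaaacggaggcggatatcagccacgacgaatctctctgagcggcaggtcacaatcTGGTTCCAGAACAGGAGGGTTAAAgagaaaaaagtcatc
HOXB6: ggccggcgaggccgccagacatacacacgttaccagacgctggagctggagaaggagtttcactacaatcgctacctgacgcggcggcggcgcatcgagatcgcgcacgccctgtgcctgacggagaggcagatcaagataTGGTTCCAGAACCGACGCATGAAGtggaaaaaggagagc
HOXC13: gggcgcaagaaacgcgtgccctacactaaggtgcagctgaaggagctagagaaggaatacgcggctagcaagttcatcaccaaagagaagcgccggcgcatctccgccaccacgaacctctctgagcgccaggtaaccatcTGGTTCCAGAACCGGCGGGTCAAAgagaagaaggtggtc
These lie in single exons at chr7:27141886-27142065 (minus strand), chr17:48622921-48623100 (minus), chr12:54002465-54002644 (plus), chr2:176119004-176119183 (plus), chr7:27198222-27198401 (minus), chr17:48596473-48596652 (minus) and chr12:53945041-53945220 (plus). A homeobox of 180 bases was found in all 39 members. Base identity between homeoboxes had a median of 81.7% over the 42 pairs with the same paralog number, 61.4% over the 172 other pairs within a cluster and 60% over the remaining 527 pairs. HOXB9 and HOXC9 shared 82.2% of homeobox bases and HOXA13 and HOXC13 76.1%, while HOXA5 and HOXA13 of one cluster shared 49.4%. Across whole transcripts, 31 of 39 had no run of 50 bases in common with a gene elsewhere in the genome. The highest share of such runs was 1.63%, in HOXB7. Genes that overlap a member at its own locus were left out of that search. Some members share same-strand exon bases with a neighbouring member there. HOXD10 (16.8%) and HOXD11 (21.4%) share with each other, and HOXB6 (16.6%) with HOXB3. HOXC4 (17.8%) and HOXC6 (15.7%) share with each other and with further entries. The longest homeobox run shared by any pair was 51 bases, between HOXB3 and HOXD3 and between HOXB6 and HOXB7.

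Reads assigned to genes numbered 17958632 to 22171106 per library, and counts are given as CPM (counts scaled to a common library size with TMM factors). Libraries labelled knockdown are called knockdown 1 to 3 below. MOCS2 itself did not differ by more than its spread, at 57.8, 66.6 and 65.6 CPM in controls 1 to 3 against 69.8, 58.9 and 59.9 CPM in knockdown 1 to 3 (log2 fold change -0.01, SE 0.14, edgeR adjusted p = 0.976), so the target goes against its label and every difference below is between the libraries as labelled. All 8 markers fixed for HEK293 were detected and summed to 1291 to 1794 CPM in controls and 1803 to 2532 CPM in knockdown. Among them VIM stood at 805 ± 123 CPM in controls and 1277 ± 255 CPM in knockdown and LHX1 at 11.2 ± 1.18 CPM in controls and 6.54 ± 2.01 CPM in knockdown, both without overlap, and NEFL, at 160.4 ± 6.01 CPM in controls and 125 ± 8.80 CPM in knockdown, did not overlap either. INA stood at 37.1, 25.3 and 51.8 CPM in controls 1 to 3 against 81.6, 96.6 and 40.5 CPM in knockdown 1 to 3, with knockdown 1 and 2 above every control and knockdown 3 within their range. The part of these markers in the results was not tested. The 4 hepatocyte markers summed to at most 0.585 CPM and the 4 leukocyte markers to at most 3.08 CPM in any library. The 4 endothelial markers summed to 3.24 to 4.38 CPM in controls and 1.58 to 3.51 CPM in the libraries labelled knockdown, and the 8 fibroblast markers to 47.2 to 63.3 and 38.5 to 66.4 CPM. The endothelial marker KDR stood at 2.35 ± 0.628 CPM in controls and 0.918 ± 0.518 CPM in knockdown without overlap, in the direction of most HOX genes, while CDH5 had 6 counts over all 6 libraries. FBN1, the most abundant fibroblast marker, stood at 33.97 ± 5.63 CPM in controls and 33.7 ± 12.8 CPM in knockdown, and THY1 had 8 counts. The fibroblast marker LUM stood at 11.9 ± 4.71 CPM in controls and 1.90 ± 0.685 CPM in knockdown (edgeR adjusted p = 0.0558), in the direction of most HOX genes too, and the part of KDR and LUM in the results was not tested. Reads that HTSeq assigned to no counted feature made up 37.5% of uniquely aligned reads in knockdown 2 and 21.5% to 24.95% in the other 5. Where these reads lie is not given, and their part in the results was not tested either.

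HOX genes leaned lower in the libraries labelled knockdown, mostly in 2 of the 3 libraries. No single member passed edgeR's adjusted test, and neither did any other of the 18267 tested genes. DESeq2 called 2 of 35 members lower, HOXA13 and HOXB6, against a background of 3.21% of all genes. Of the 39 members, 35 passed the filter on low counts and were tested, and 29 of these 35 (82.9%) had a negative log2 fold change, against 48.2% of all 18267 tested genes. The median log2 fold change was -0.43, against 0.02 over all tested genes. By cluster the medians were -0.25 for HOXA, -0.55 for HOXB, -0.61 for HOXC and -0.14 for HOXD, and all 9 tested HOXB genes and all 7 tested HOXC genes were negative, as were 8 of 11 HOXA and 5 of 8 HOXD genes. Differences between clusters were not tested, and in bulk RNA fewer cells with a transcript and less transcript per cell cannot be told apart.

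The test was edgeR's quasi-likelihood F test with Benjamini-Hochberg adjustment over all tested genes. It called 0 HOX genes lower and 0 higher at an adjusted p of 0.05, where it called 0% of all genes in either direction. At an unadjusted p of 0.05, 8 of 35 HOX genes (22.9%) were lower and 0 higher, against backgrounds of 10.6% lower and 9.93% higher. DESeq2 called 2 of 35 lower, HOXA13 and HOXB6, and 0 higher, against backgrounds of 3.21% and 3.06%, and limma voom called 0, with 14 lower and 0 higher at an unadjusted p of 0.05 (backgrounds 11.8% and 9.11%). The 8 genes with an unadjusted p under 0.05 were HOXA11, HOXA13, HOXB6, HOXB8, HOXC4, HOXC6, HOXC8 and HOXC13. That count was 3 without control 1, 2 without control 2, 4 without knockdown 1, 5 without knockdown 2, 8 without control 3 and 24 without knockdown 3 (background then 16.4% lower and 14.7% higher). The share of all genes was not taken for the other omissions, so their counts have no background to be read against. Every library labelled knockdown lay below every control in 8 of 35 members (22.9%, background 14.3%) and above every control in 0 (background 12.5%). The 8 below were HOXA10, HOXA13, HOXB8, HOXC8, HOXC10, HOXC11, HOXC13 and HOXD3, and the number was 20 without control 3 (background 18.3%) and 25 without knockdown 3 (background 25%, and 23% above every control).

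**Figure D1:**
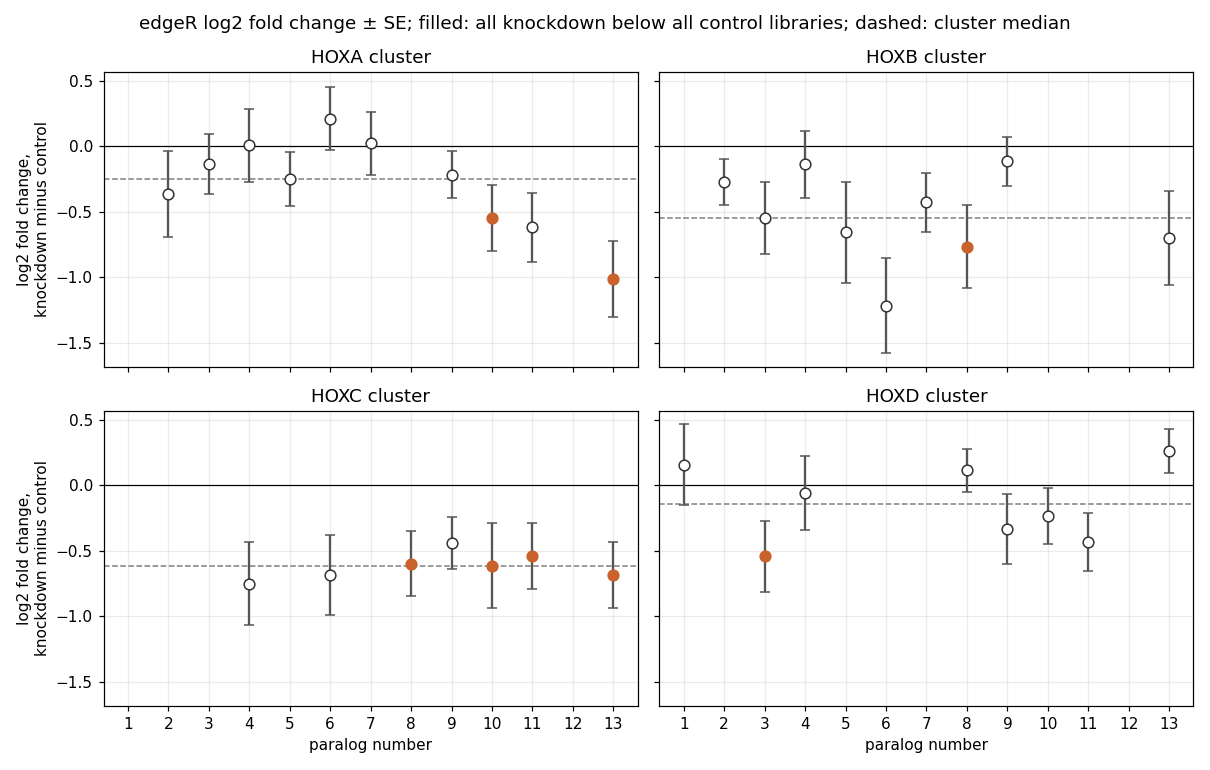
edgeR log2 fold changes (knockdown minus control, vertical axis, bars ± SE) of 34 of the 35 tested HOX genes against paralog number, one panel per cluster. Filled points are the 8 genes in which all 3 libraries labelled knockdown lay below all 3 controls, and the dashed lines are cluster medians over all tested members (-0.25, -0.55, -0.61 and -0.14).

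Knockdown 1 and knockdown 2 carried the lean, and knockdown 3 stood level with the controls. Knockdown 1 lay below all 3 controls in 28 of 35 members (80.0%, background 38.5%) and above all 3 in 3 (background 37.6%). Knockdown 2 lay below all 3 controls in 27 of 35 (77.1%, background 39%) and above all 3 in 1 (background 38.4%). Knockdown 3 lay below all controls in 8 (22.9%, background 31.7%) and above all in 7 (background 30.6%). Relative to the control mean, the median member stood at -0.62 on the log2 scale in knockdown 1, -0.61 in knockdown 2 and -0.03 in knockdown 3. Without knockdown 3 edgeR called 11 of 36 tested members lower and 0 higher, against backgrounds of 8.3% lower and 6.46% higher. Among these 11 were HOXA11, HOXA13, HOXB3, HOXB6, HOXB13, HOXC4, HOXC6, HOXC9, HOXC13 and HOXD10. Leaving out any other single library left 0 members called, and the list median was -0.32 without knockdown 1 and -0.36 without knockdown 2.

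**Figure D2:**
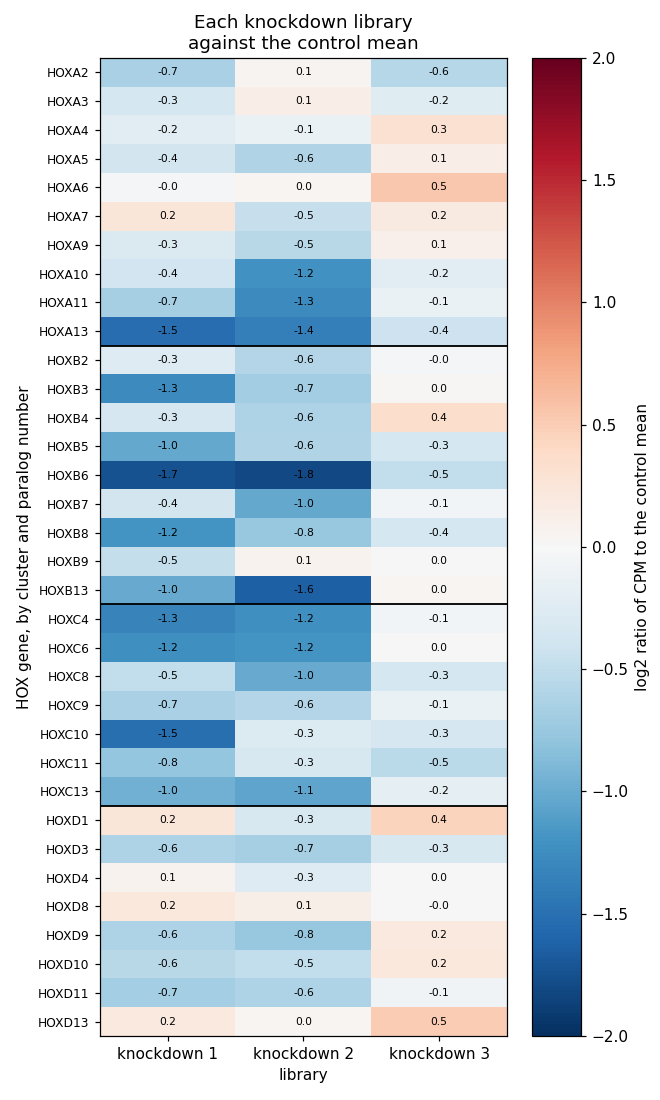
Log2 ratio of CPM (colour and number) in knockdown 1, 2 and 3 to the mean of the 3 controls, for 34 of the 35 tested HOX genes in order of cluster and paralog number. The first 2 columns are mostly below 0 (medians over all 35 of -0.62 and -0.61), and the third is near 0 (median -0.03).

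Summed over detected members, the clusters showed the same split between libraries. HOXA (11 genes) summed to 272, 344 and 252 CPM in the controls and to 202, 163 and 276 CPM in the libraries labelled knockdown, with means of 289.5 ± 48.1 and 214 ± 57.5 CPM. HOXB (9 genes) summed to 248, 256 and 198 CPM and to 149.8, 159 and 233 CPM (means 234 ± 31.4 and 181 ± 45.6). HOXC (9 genes) summed to 90.2, 104 and 88.5 CPM and to 48.1, 51.1 and 85.3 CPM (means 94.4 ± 8.79 and 61.5 ± 20.6), and its 3 libraries labelled knockdown were all below the lowest control. HOXD (8 genes) summed to 160.3, 173 and 145 CPM and to 131, 127 and 184 CPM (means 159.5 ± 13.9 and 147 ± 32.1). Knockdown 1 and 2 stood at 51.0% and 54.1% of the control mean for HOXC, and at 82.2% and 79.3% for HOXD. Knockdown 3 stood at 95.3% for HOXA, 99.5% for HOXB, 90.4% for HOXC and 116% for HOXD.

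**Figure D3:**
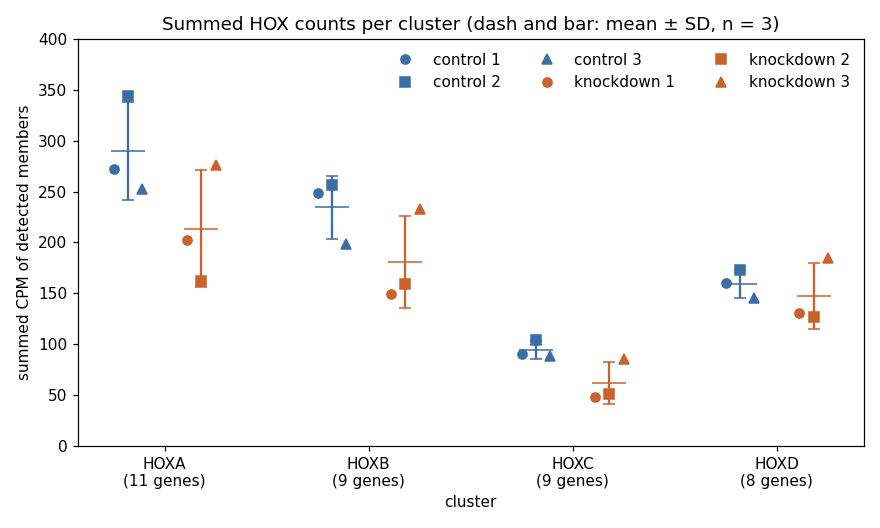
Summed CPM of the detected members of each cluster in each library (points), with the mean and SD of 3 libraries per group (dash and bar). In every cluster knockdown 1 and 2 lie below the 3 controls and knockdown 3 lies above knockdown 1 and 2, for HOXC at 85.3 against 48.1 and 51.1 CPM.

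By position, the head-end class (paralogs 1 to 3) had 6 of 7 tested members negative with a median of -0.36. The middle class (paralogs 4 to 8) had 10 of 14 negative with a median of -0.34, and the tail-end class (paralogs 9 to 13) 13 of 14 with a median of -0.49. At an unadjusted edgeR p of 0.05 the counts were 0 of 7, 5 of 14 and 3 of 14, all lower (backgrounds 10.6% lower and 9.93% higher). Knockdown 1 lay below all controls in 13 of 14 tail-end members and knockdown 2 in 12 of 14, against 10 of 14 each in the middle class and 5 of 7 each in the head-end class (backgrounds 38.5% and 39% of all genes). Among the paralogs numbered 13, HOXA13 (-1.02), HOXB13 (-0.70) and HOXC13 (-0.69) had negative log2 fold changes and HOXD13 a positive one (0.26). Those numbered 9 ran from -0.44 (HOXC9) to -0.12 (HOXB9), and those numbered 4 from -0.75 (HOXC4) to 0.01 (HOXA4). No difference between classes was tested.

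The levels of different genes were compared as CPM per kilobase of exon, since longer transcripts give more reads. In the controls HOXD10 was highest at 26.6 ± 3.52 CPM per kb (mean ± SD, n = 3), followed by HOXB9 at 23.7 ± 3.83, HOXA10 at 21.4 ± 4.92, HOXB7 at 21.2 ± 1.36, HOXA5 at 20.2 ± 3.11 and HOXA9 at 18.4 ± 1.24. Within these 6, each differed from the next in order by less than the larger of their SDs, while HOXA9 and the seventh, HOXB2, differed by more. HOXB2 (15.1 ± 1.35), HOXC9 (13.5 ± 1.98), HOXD13 (12.8 ± 1.08) and HOXA11 (12.05 ± 1.95) completed the 10 highest, so 7 of the 10 carry paralog numbers of 9 or more. Averaged over all 6 libraries the 10 highest members were the same when only exon bases free of other genes were used as length. That length moved other members up, HOXD4 from 2.14 to 10.9 CPM per kb, HOXA7 from 3.77 to 10.04 and HOXD3 from 0.879 to 3.39, since 80.5%, 62.5% and 74.1% of their exon bases lie under another gene. HOXC was the lowest cluster by summed CPM, and HOXC9 was its only member above 7.37 ± 1.16 CPM per kb, the control level of HOXC4.

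**Figure D4:**
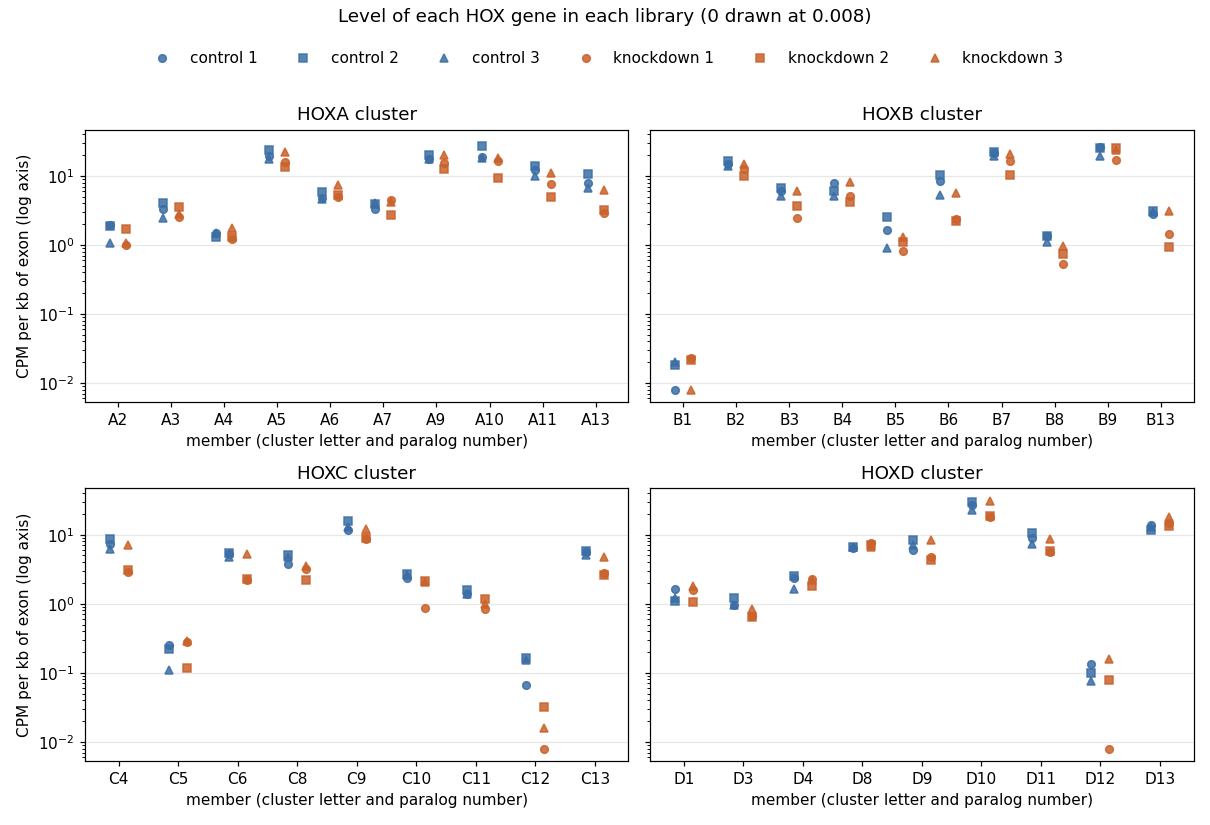
CPM per kilobase of exon (log axis) of 38 of the 39 HOX genes in each of the 6 libraries, one panel per cluster, with values of 0 drawn at 0.008. HOXB1, HOXC5, HOXC12 and HOXD12 lie far below the other members, and HOXD10, HOXB9 and HOXA10 are the highest in the controls.

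The HOXA cluster lies on chromosome 7. HOXA2, the selector gene of the second pharyngeal arch, stood at 4.72, 4.58 and 2.62 CPM in controls 1 to 3 against 2.49, 4.15 and 2.64 CPM in knockdown 1 to 3. HOXA3, required for thymus and parathyroid formation, stood at 14.3, 17.2 and 10.5 CPM in controls 1 to 3 against 10.97, 15.4 and 11.9 CPM in knockdown 1 to 3. HOXA4 stood at 2.61, 2.29 and 2.62 CPM in controls 1 to 3 against 2.15, 2.29 and 3.11 CPM in knockdown 1 to 3. In these 3 genes the groups overlapped, with log2 fold changes of -0.36, -0.14 and 0.01, and HOXA4 shares 47.3% of its exon bases with other genes. HOXA5, which acts in lung development, stood at 32.8, 40.4 and 30.2 CPM in controls 1 to 3 against 26.6, 22.6 and 37.6 CPM in knockdown 1 to 3. HOXA6 stood at 6.16, 7.41 and 5.89 CPM in controls 1 to 3 against 6.33, 6.70 and 9.50 CPM in knockdown 1 to 3. HOXA7 stood at 7.86, 9.43 and 9.72 CPM in controls 1 to 3 against 10.7, 6.54 and 10.2 CPM in knockdown 1 to 3. Knockdown 2 was the lowest library for HOXA5 and HOXA7 and knockdown 3 the highest for HOXA6, and the log2 fold changes were -0.25, 0.21 and 0.02. HOXA6 and HOXA7 lie opposite the antisense gene HOXA-AS3, under which and other genes lie 40.1% and 62.5% of their exon bases.

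The tail end of HOXA was lower in knockdown 1 and 2 with log2 fold changes that became more negative in order from HOXA9 to HOXA13. HOXA9, a regulator of blood progenitors, stood at 53.9, 59.995 and 53.1 CPM in controls 1 to 3 against 45.7, 38.001 and 59.9 CPM in knockdown 1 to 3. HOXA10, which patterns the uterus, stood at 69.1, 100.2 and 68.2 CPM in controls 1 to 3 against 60.95, 33.96 and 67.7 CPM in knockdown 1 to 3. HOXA11, a kidney and forearm gene, stood at 27.8, 32.3 and 23.3 CPM in controls 1 to 3 against 17.6, 11.4 and 25.3 CPM in knockdown 1 to 3. Knockdown 2 was the lowest library in all 3, and the log2 fold changes were -0.22, -0.55 and -0.62. HOXA13, which patterns the hand, foot and hindgut, stood at 39.7, 53.6 and 33.98 CPM in controls 1 to 3 against 14.6, 16.3 and 31.97 CPM in knockdown 1 to 3. All 3 libraries labelled knockdown were below the lowest control, knockdown 3 only slightly. Its means were 42.4 ± 10.1 CPM in controls and 20.98 ± 9.56 CPM in knockdown (SD, n = 3), with a log2 fold change of -1.02 with an SE of 0.29. The edgeR adjusted p was 0.112, DESeq2 gave 0.0164, and over all alternatives the adjusted p ran from 8.96e-05 (no filter) to 0.435.

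The HOXB cluster lies on chromosome 17 (48528526 to 48729178). HOXB1 was not detected, with 4 counts in all. HOXB2, a hindbrain gene, stood at 34.7, 38.8 and 32.6 CPM in controls 1 to 3 against 29.5, 23.5 and 34.6 CPM in knockdown 1 to 3. HOXB3 stood at 45.6, 49.8 and 38.1 CPM in controls 1 to 3 against 18.4, 27.4 and 45.3 CPM in knockdown 1 to 3. HOXB4, known for expansion of blood stem cells, stood at 29.6, 22.5 and 19.5 CPM in controls 1 to 3 against 18.9, 15.5 and 30.6 CPM in knockdown 1 to 3. Knockdown 1 and 2 were below every control in all 3 genes, and for HOXB4 knockdown 3 was the highest of the 6. Their log2 fold changes were -0.28, -0.55 and -0.14. HOXB5 stood at 3.33, 5.16 and 1.86 CPM in controls 1 to 3 against 1.64, 2.23 and 2.69 CPM in knockdown 1 to 3. HOXB6 stood at 21.7, 26.8 and 13.8 CPM in controls 1 to 3 against 6.16, 5.85 and 14.7 CPM in knockdown 1 to 3. Knockdown 1 and 2 held less HOXB6 than any control, and knockdown 3 lay between control 3 and control 1, so the groups overlapped. Its log2 fold change of -1.22 (SE 0.36, edgeR adjusted p = 0.12) was the most negative of the 35 tested members. DESeq2 gave an adjusted p of 0.0148, and the adjusted p over all alternatives ran from 2.91e-05 (no filter) to 0.441. HOXB6 shares 32.9% of its exon bases with HOXB3 and the antisense HOXB-AS3.

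HOXB7, a frequently studied member in cancer cells, stood at 33.3, 33.9 and 30.1 CPM in controls 1 to 3 against 25.2, 15.9 and 31.2 CPM in knockdown 1 to 3. HOXB8 stood at 2.79, 2.74 and 2.27 CPM in controls 1 to 3 against 1.07, 1.49 and 2.005 CPM in knockdown 1 to 3, all 3 libraries labelled knockdown below all controls (log2 fold change -0.77, SE 0.32, edgeR adjusted p = 0.213). HOXB5 and HOXB7, at log2 fold changes of -0.66 and -0.43, overlapped between groups. HOXB9, which patterns the thorax, stood at 67.9, 66.1 and 49.9 CPM in controls 1 to 3 against 43.9, 64.3 and 61.5 CPM in knockdown 1 to 3. Here only knockdown 1 was below the controls, and the log2 fold change was -0.12 with an SE of 0.19. HOXB13, the prostate and tail-bud member, stood at 9.57, 10.6 and 10.5 CPM in controls 1 to 3 against 5.03, 3.24 and 10.6 CPM in knockdown 1 to 3. Knockdown 1 and 2 were below the controls and knockdown 3 was within their range, and the log2 fold change was -0.70 over all libraries and -1.31 without knockdown 3 (edgeR adjusted p = 0.00897, range over alternatives 0.00897 to 0.575).

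The HOXC cluster lies on chromosome 12 (53938765 to 54056030), and its genes are known for setting the identity of spinal motor neurons. All 7 tested HOXC genes were below every control in both knockdown 1 and knockdown 2. HOXC4 stood at 20.04, 23.3 and 16.9 CPM in controls 1 to 3 against 7.92, 8.50 and 19.3 CPM in knockdown 1 to 3. HOXC6, of the brachial level, stood at 18.7, 19.2 and 17.1 CPM in controls 1 to 3 against 7.75, 7.97 and 18.4 CPM in knockdown 1 to 3. For both, knockdown 3 lay within the range of the controls while knockdown 1 and 2 were under every control. HOXC8 stood at 7.19, 9.52 and 8.96 CPM in controls 1 to 3 against 6.05, 4.20 and 6.70 CPM in knockdown 1 to 3. HOXC9, which marks the thoracic level, stood at 19.8, 26.3 and 21.7 CPM in controls 1 to 3 against 14.4, 14.99 and 20.6 CPM in knockdown 1 to 3. HOXC10, of the lumbar level, stood at 5.57, 6.29 and 6.14 CPM in controls 1 to 3 against 2.04, 4.94 and 4.75 CPM in knockdown 1 to 3. HOXC8 and HOXC10 were below every control in all 3 libraries labelled knockdown, and HOXC9 in knockdown 1 and 2. Their log2 fold changes were -0.60, -0.44 and -0.61. HOXC11 stood at 4.49, 5.12 and 4.53 CPM in controls 1 to 3 against 2.71, 3.77 and 3.22 CPM in knockdown 1 to 3, and HOXC13, a regulator of hair and nail keratins, at 13.7, 13.9 and 12.4 CPM in controls 1 to 3 against 6.79, 6.38 and 11.7 CPM in knockdown 1 to 3. Both were below the controls in all 3 libraries, with log2 fold changes of -0.54 (SE 0.25) and -0.69 (SE 0.25, edgeR adjusted p = 0.169). The log2 fold changes of the 7 genes spanned only -0.75 to -0.44, a narrower range than over the tested genes of each other cluster.

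HOXC12 and HOXC5 were the members just above the detection limit. HOXC12 had exactly 30 counts, 5, 12 and 10 in the controls and 0, 2 and 1 in the libraries labelled knockdown, and did not pass the filter on low counts. HOXC5, taken as its protein-coding entry, had 46 counts, 10, 9 and 4 in the controls and 9, 4 and 10 in the others, and 59.9% of its exon bases lie under other genes. HOXD12 was just below the limit with 15 counts, at most 4 in any library. In the fit with no filter edgeR called 4 of 39 members lower, HOXA13, HOXB6, HOXC4 and HOXC12, and 0 higher. The backgrounds were 2.03% and 1.6% of 43251 genes. Only 18267 of those genes passed the filter on low counts in the main fit, while 35 of the 39 members did. The shares of members and of all genes are therefore not alike in count level.

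The HOXD cluster lies on chromosome 2 (176092891 to 176190907) and had the median log2 fold change nearest 0. HOXD1 stood at 3.24, 2.20 and 2.42 CPM in controls 1 to 3 against 3.11, 2.07 and 3.59 CPM in knockdown 1 to 3. HOXD3 stood at 3.37, 4.36 and 3.37 CPM in controls 1 to 3 against 2.37, 2.29 and 2.95 CPM in knockdown 1 to 3, all 3 libraries labelled knockdown below the controls. HOXD4 stood at 3.51, 3.68 and 2.37 CPM in controls 1 to 3 against 3.34, 2.66 and 3.22 CPM in knockdown 1 to 3. Most exon bases of HOXD1, HOXD3 and HOXD4 lie under other genes (58.1%, 74.1% and 80.5%), so their counts are uncertain, and their log2 fold changes were 0.16, -0.54 and -0.06. HOXD8 stood at 16.9, 17.5 and 17.2 CPM in controls 1 to 3 against 19.96, 18.8 and 17.2 CPM in knockdown 1 to 3. Its controls were the closest together of the 35 relative to their mean (17.2 ± 0.287 CPM), and knockdown 1 and 2 lay above them. HOXD9 stood at 11.4, 15.8 and 13.4 CPM in controls 1 to 3 against 8.76, 7.92 and 15.5 CPM in knockdown 1 to 3. HOXD10, a hindlimb and lumbar motor neuron gene, stood at 72.4, 80.8 and 61.9 CPM in controls 1 to 3 against 48.8, 50.9 and 83.2 CPM in knockdown 1 to 3. HOXD11, which acts with HOXA11 in the embryonic kidney, stood at 18.7, 22.7 and 15.7 CPM in controls 1 to 3 against 11.9, 12.4 and 18.04 CPM in knockdown 1 to 3. In these 3 genes knockdown 1 and 2 were below every control, and knockdown 3 was within or above their range. Their log2 fold changes were -0.33, -0.23 and -0.43, and those of the other paralogs numbered 11 were -0.62 (HOXA11) and -0.54 (HOXC11). HOXD13, the digit gene, stood at 30.8, 26.001 and 29.05 CPM in controls 1 to 3 against 32.9, 29.6 and 40.6 CPM in knockdown 1 to 3. Knockdown 3 had the most HOXD13 of all libraries, and the log2 fold change was 0.26 (SE 0.17, edgeR adjusted p = 0.397), the most positive of the 35.

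Noncoding RNAs transcribed from the HOX clusters leaned lower in the libraries labelled knockdown, as the coding members did. Of 18 listed, 15 were tested and 0 passed edgeR's adjusted threshold, as 0 of all tested genes did. DESeq2 called HOXA-AS3, HOTAIR, HOXB-AS3 and HOXC-AS1 lower (background 3.21% of all genes). At an unadjusted edgeR p of 0.05, 7 were lower and 0 higher (backgrounds 10.6% and 9.93%), and edgeR called 7 lower without knockdown 3 (background 8.3%). In 8 of 15 every library labelled knockdown lay below every control (background 14.3%), and the median log2 fold change was -0.56. HOXA-AS3, whose exons lie antisense to parts of HOXA3, HOXA4, HOXA6 and HOXA7, stood at 14.02, 19.2 and 7.55 CPM in controls 1 to 3 against 1.87, 3.30 and 4.22 CPM in knockdown 1 to 3. Its log2 fold change was -2.11 (SE 0.38, edgeR adjusted p = 0.0671), and without knockdown 3 it was -2.40. HOTAIR, transcribed from the HOXC cluster and known for binding Polycomb, stood at 11.5, 14.3 and 10.97 CPM in controls 1 to 3 against 1.92, 6.80 and 4.33 CPM in knockdown 1 to 3 (log2 fold change -1.49, SE 0.37, edgeR adjusted p = 0.0979). HOXC-AS1 stood at 3.01, 2.65 and 3.37 CPM in controls 1 to 3 against 0.792, 1.38 and 1.42 CPM in knockdown 1 to 3. These 3 were below every control in knockdown 3 as well (background 31.7% of all genes). They were taken for the smallest p of the list, which favours genes low in all libraries labelled knockdown. They are thus not comparable with the coding members on this point. HOTAIRM1, at 17.04 CPM in knockdown 3, lay within the range of its controls (16.5, 20.3 and 17.1 CPM). HAGLR, the most abundant of the list over all 6 libraries, stood at 16.3, 17.3 and 14.5 CPM in controls 1 to 3 against 12.9, 13.4 and 18.4 CPM in knockdown 1 to 3, with the groups overlapping. HOTTIP, beside HOXA13 and singled out for that after its values were seen, stood at 1.75, 2.02 and 2.47 CPM in controls 1 to 3 against 0.905, 0.797 and 1.06 CPM in knockdown 1 to 3. Antisense and sense reads can be told apart only if the counting used strand, and the sources used here do not give that setting.

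**Figure D5:**
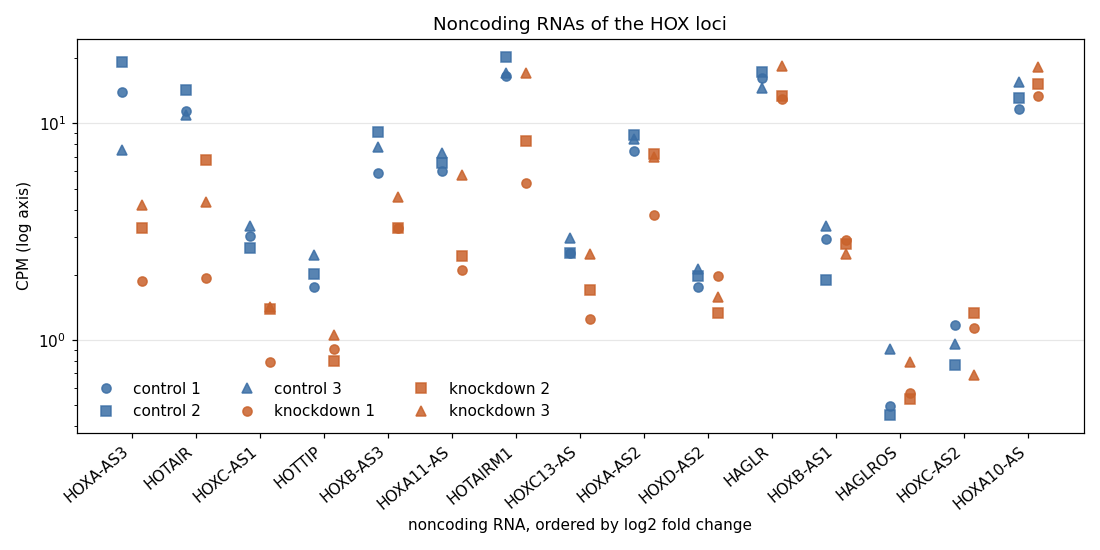
CPM (log axis) of the 15 tested noncoding RNAs of the HOX loci in each library, ordered by log2 fold change from HOXA-AS3 (-2.11) to HOXA10-AS (0.22). In 8 of them all 3 libraries labelled knockdown lie below all 3 controls.

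Partners and regulators of HOX genes went different ways, and edgeR called 0 of them after adjustment, as it called 0 of all tested genes. DESeq2 called STRA6 and RARG, of 15 tested retinoic acid genes, and EZH1, of 27 Polycomb genes, lower (background 3.21% of all genes). Taken over all these lists together, the lower calls were near that background. Called higher were EGR2, of 7 tested upstream regulators, and PHC1, RING1 and CBX6, of the 27 Polycomb genes. DOT1L, of 19 trithorax and associated genes, was called higher too (background 3.06%). Of 9 TALE homeodomain genes, whose proteins bind DNA together with HOX proteins, 0 had an unadjusted p under 0.05, and the median log2 fold change was -0.15. PBX2, the most abundant, stood at 84.9, 94.9 and 98.02 CPM in controls 1 to 3 against 54.9, 55.9 and 98.03 CPM in knockdown 1 to 3. PKNOX1 stood at 22.3, 25.1 and 23.6 CPM in controls 1 to 3 against 27.3, 39.8 and 23.7 CPM in knockdown 1 to 3, and PKNOX2 at 3.78, 4.27 and 3.83 CPM in controls 1 to 3 against 1.87, 3.83 and 3.01 CPM in knockdown 1 to 3. Knockdown 1 and 2 had less PBX2 than any control, and knockdown 3 was level with control 3.

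Of 27 Polycomb genes, 6 were higher and 3 lower at an unadjusted edgeR p of 0.05 (backgrounds 9.93% and 10.6%), with a median log2 fold change of 0.08. PHC1, a subunit of the repressive complex that binds the methylated histone, stood at 24.8, 22.3 and 23.9 CPM in controls 1 to 3 against 50.2, 34.8 and 37.4 CPM in knockdown 1 to 3 (log2 fold change 0.79, SE 0.17, adjusted p = 0.0871). RING1, a ubiquitin ligase of the same complex, stood at 42.96, 40.1 and 54.6 CPM in controls 1 to 3 against 69.2, 82.2 and 62.2 CPM in knockdown 1 to 3, and EZH1, a histone methyltransferase, at 54.02, 59.4 and 52.2 CPM in controls 1 to 3 against 33.5, 34.6 and 42.3 CPM in knockdown 1 to 3. In these 3 the groups did not overlap, PHC1 and RING1 higher and EZH1 lower in all 3 libraries labelled knockdown. RBBP7, the most abundant, averaged 686 ± 59.8 CPM in controls and 530.2 ± 25.5 CPM in knockdown. Of 19 trithorax and associated genes, 2 were higher and 1 lower at an unadjusted edgeR p of 0.05, near or under the backgrounds of 9.93% and 10.6%. DOT1L, a histone methyltransferase, averaged 36.02 ± 6.02 CPM in controls and 58.01 ± 12.95 CPM in knockdown, MLLT1, its partner in elongation complexes, 61.3 ± 3.66 CPM in controls and 77.1 ± 6.96 CPM in knockdown, and PSIP1, which tethers menin and KMT2A to chromatin, 257 ± 21.7 CPM in controls and 189.9 ± 45.9 CPM in knockdown. NSD1, the most abundant of the list, averaged 303 ± 28.6 CPM in controls and 308 ± 16.1 CPM in knockdown.

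Of 15 tested genes of retinoic acid supply and response, 4 were lower and 0 higher at an unadjusted edgeR p of 0.05 (backgrounds 10.6% and 9.93%), and the list median was 0.03. STRA6, the membrane receptor that takes up retinol, stood at 12.6, 13.02 and 14.1 CPM in controls 1 to 3 against 4.52, 6.91 and 5.80 CPM in knockdown 1 to 3 (log2 fold change -1.21, SE 0.22, adjusted p = 0.0674). RARG, a retinoic acid receptor, stood at 9.35, 9.57 and 9.01 CPM in controls 1 to 3 against 3.05, 3.72 and 7.44 CPM in knockdown 1 to 3. ALDH1A3, which makes retinoic acid, stood at 11.1, 12.2 and 8.51 CPM in controls 1 to 3 against 7.86, 6.48 and 7.70 CPM in knockdown 1 to 3. These 3 of 15 were below every control in all 3 libraries labelled knockdown (background 14.3%). ALDH1A2, which makes retinoic acid too and was the most abundant, averaged 111 ± 2.69 CPM in controls and 113 ± 35.4 CPM in knockdown. Of 7 tested upstream regulators of the HOX pattern, 2 were higher and 0 lower at an unadjusted edgeR p of 0.05 (backgrounds 9.93% and 10.6%). EGR2, which activates HOX genes in the hindbrain and is also an immediate early gene, stood at 1.48, 0.853 and 1.91 CPM in controls 1 to 3 against 5.88, 5.37 and 2.32 CPM in knockdown 1 to 3. YY1 averaged 149 ± 10.6 CPM in controls and 200.4 ± 23.4 CPM in knockdown, and GDF11, a signal for the tail-end HOX genes, 51.8 ± 3.15 CPM in controls and 40.6 ± 7.98 CPM in knockdown. CDX4 had 0 counts in all 6 libraries, and CDX1 did not pass the filter.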

How the data were processed

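Per the labels' protocols, total RNA was depleted of ribosomal RNA and made into stranded libraries. The authors deposited raw read counts per Ensembl gene, not normalized. The submitters' processing notes name bcl2fastq 2.18, TopHat2 2.0.13, HTSeq and hg38; the annotation release, strand setting, read filters and treatment of overlapping genes are details not given in the sources used here. In all, 5 special rows (unassigned reads) stayed out of library sizes; reads called ambiguous were 2.87% to 3.70% of uniquely aligned reads. Symbols, exons and coordinates come from GENCODE 29 (GRCh38), which matched 57055 of 60675 identifiers. Genes were tested with edgeR 4.0.16 (R 4.3.3): TMM factors, filterByExpr, quasi-likelihood F test, two-sided, threshold 0.05 after Benjamini-Hochberg adjustment over 18267 genes. Each SE of an edgeR log2 fold change was derived from the test, as its absolute value divided by the square root of the F statistic. Per-library log2 ratios used an offset of 0.1 CPM. The fit was tested on simulated data. Replicates differed by more than sampling noise (chi-square per degree of freedom 11.6 to 75.3). Alternatives were other scalings and filters, DESeq2 1.42.0, limma 3.58.1 voom, a replicate block and leaving out each library. Values in every library are given for tested members with a mean of at least 1 CPM, an unadjusted p under 0.05 or no overlap, and for up to 3 members with the smallest p and the most abundant of each other list. Members and lists were chosen with earlier results of these data known. Homeobox DNA was shown where the rule named proteins. Values of 1 member and 1 homeobox sequence are not reported here.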

Additional observations from a re-analysis of the deposited data

How the results depend on the processing

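HOX genes called numbered 0 in the main fit and under DESeq2 size factors, upper-quartile factors, voom, the stricter filter and the replicate block, 2 with DESeq2, 4 with no filter, and 0 to 11 when 1 library was left out. All genes called numbered 0, against 1145 with DESeq2, 1574 with no filter, 19 with the replicate block and 0 to 2815 when 1 library was left out. HOX genes lower at an unadjusted p of 0.05 numbered 8, against 14 with voom, 18 with no filter, 9 with the replicate block and 2 to 24 when 1 library was left out. The share of all genes at that threshold was taken only for the main fit, voom and the fit without knockdown 3. Members without overlap between groups and lower numbered 8, and 8 to 25 when 1 library was left out. Those higher numbered 0, against 1 with upper-quartile factors and 0 to 2 when 1 library was left out. Of all genes, 14.3% were lower and 12.5% higher without overlap. These shares were 25% and 23% without knockdown 3, and 18.3% and 17% without control 3. They were not taken for the other settings, so those counts have no background. The median log2 fold change of -0.43 stayed between -0.66 and -0.29 under every alternative and was -0.45 with the replicate block. The log2 fold changes of 28 of 35 members kept their sign under every alternative. The other 7 lay near 0. When 1 library was left out, HOXA3 ran from -0.32 to 0.032, HOXA4 from -0.18 to 0.11, HOXA7 from -0.10 to 0.21, HOXB4 from -0.48 to 0.049, HOXB9 from -0.25 to 0.033, HOXD1 from -0.022 to 0.35 and HOXD4 from -0.24 to 0.058. HOXA4 was 0.0077, and -0.0044 with voom, -0.0077 with the replicate block and -0.014 without a filter. HOXA7 was 0.024, and -0.0032 with voom and -0.000504 with the replicate block. The cause of these changes was not tested. Libraries share replicate numbers, but deviations of same-numbered libraries correlated at 0.11, -0.17 and -0.12, so the numbers were not taken as pairs. Detected members numbered 37, and 38, 35 or 36 at a total of 10, a total of 100 or 3 counts in every library.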

Other observations

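Genes beside the clusters were read as the protein-coding genes within 300 kb of a cluster, or inside it, that are no HOX gene. Of 25 such genes, 19 were tested, and edgeR called 0 after adjustment. Before adjustment 5 had p under 0.05 and were lower, and 0 were higher (backgrounds 10.6% and 9.93%). The median log2 fold change was -0.24, against 0.02 over all tested genes. Of the 19, 14 were negative, against 48.2% of all tested genes. Without knockdown 3 edgeR called 8 lower and 0 higher after adjustment (backgrounds 8.3% and 6.46%). Every library labelled knockdown lay below every control in 5 of 19 (background 14.3%) and above every control in 0 (background 12.5%). The listed neighbours thus leaned lower too, and how this relates to the HOX genes was not tested. Among those listed, AC009336.2, AC004080.3 and AC012531.2 share exon bases with HOX members. CALCOCO1, beyond the HOXC13 end of its cluster, stood at 38.3, 43.9 and 45.7 CPM in controls 1 to 3 against 14.4, 25.8 and 26.9 CPM in knockdown 1 to 3 (log2 fold change -0.93, SE 0.23, edgeR adjusted p = 0.0976). ATP5MC1 near HOXB, a gene for the c subunit of mitochondrial ATP synthase, stood at 58.6, 60.1 and 61.6 CPM in controls 1 to 3 against 22.3, 20.99 and 47.6 CPM in knockdown 1 to 3. ATP5MC2 near HOXC, another c subunit gene, stood at 103, 134 and 112 CPM in controls 1 to 3 against 67.7, 55.7 and 94.2 CPM in knockdown 1 to 3. In these 3 the groups did not overlap. HNRNPA1, near HOXC and the most abundant of the list, stood at 722, 763 and 760.1 CPM in controls 1 to 3 against 871, 625 and 904 CPM in knockdown 1 to 3, with the groups overlapping. Near HOXD, and chosen after their values were seen, LNPK and MTX2 averaged 109 ± 8.29 CPM in controls and 106 ± 7.86 CPM in knockdown, and 40.7 ± 2.66 CPM in controls and 41.5 ± 7.93 CPM in knockdown, respectively.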
